A study of Mus musculus with 98 samples.

Results

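Described here are 9 receptor genes of the TNF receptor superfamily and of the co-stimulatory and checkpoint group, followed cell by cell through intestinal innate lymphoid cells (ILCs): Tnfrsf25, Tnfrsf18, Tnfrsf4, Tnfrsf9, Tnfrsf1a, Tnfrsf1b, Cd160, Icos and Ctla4. They were taken by gene symbol and are 9 of the 23420 genes in the expression tables. ILCs are tissue lymphocytes that carry no rearranged antigen receptor. The R9-ILCs derive from pluripotent stem cells of the mouse. They were recovered 3 weeks after transplantation from the gut of Rag2-/-Il2rg-/- recipients, which lack lymphocytes of their own; the gate was GFP+ CD45.2+ Lin- CD127+, and the strain label is C57BL/6. WT-ILCs came from the intestine of wild-type animals, C57BL/6 of the CD45.2 strain and 8 weeks old, with the gate CD45.2+ Lin- CD127+ and no GFP. Transplantation, recipient genotype and GFP therefore separate the groups together with cell origin, and their parts cannot be told apart. No animal is named in the labels, so each group counts as 1 sample, no difference has a replicate check and no p-value or standard error is given.

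Receptors of the TNF superfamily are surface proteins that bind trimeric ligands. Some, such as TNFR1 and DR3, carry a death domain and recruit the adaptor TRADD; others, such as GITR, OX40, 4-1BB and TNFR2, bind TRAF adaptors directly, and both routes lead to NF-kappa B. ICOS and CTLA-4 belong to the CD28 family of the immunoglobulin superfamily: ICOS binds ICOSL and signals through phosphoinositide 3-kinase, while CTLA-4 binds CD80 and CD86 and restrains T cells. CD160 binds HVEM, itself a TNF receptor family member. In the gut, the DR3 ligand TL1A, made largely by myeloid cells, is known to act on ILC3s, the ILC type that makes interleukin 22.

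The R9 titles form a series without a numeric ending (32 cells) and a series of ending 1 (35 cells); the labels do not say what the ending means, and it was handled as a possible batch. The 31 WT columns were reduced to 22 cells by joining columns that looked alike, which is an assumption. Values are TPM, in which every cell has the same sum and each gene is corrected for transcript length, so that levels can be set beside each other between genes. TPM hides the depth of a cell. As a stand-in, a median of 2082.5 genes stood at or above 1 TPM in R9 cells without an ending, 2429 in R9 cells of ending 1 and 2092.5 in WT cells. The 3 sets also differed at the low end: of all values above 0, a median of 0.147%, 26.9% and 17.2% per cell lay under 1 TPM. Shares of cells at 1 TPM or more are therefore not on the same footing, and shares at 10 TPM or more lead the account. The housekeeping gene Gapdh had a value of 0 in 24, 1 and 9 of the 32, 35 and 22 cells, so a value of 0 is described as listed at 0 and not as absence. In 26, 1 and 5 of these cells, at least 10% of the TPM belonged to 1 gene. Of 7 listed ILC core genes, Id2 and Il2rg were at 10 TPM or more in every cell, and Il7r, which encodes CD127, in 32, 35 and 21 cells. The others were less even. Rora reached that level in 32, 27 and 13 cells and Ptprc, which encodes CD45, in 28, 12 and 5. Thy1 did so in 5, 14 and 4 cells and Zbtb16 in 3, 1 and 0.

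Among the receptor genes, 5 lie on mouse chromosome 4 and a pair lies on chromosome 1 (GRCm38, the mm10 build, GENCODE M21 annotation). Tnfrsf18 (chr4:156026164-156028895) follows Tnfrsf4 (chr4:156013843-156016612) on the same strand with 9552 bases between them, and Icos (chr1:60977927-61000320) follows Ctla4 (chr1:60887000-60915832) after 62095 bases. Within each of these neighbour pairs 1 gene was read in many cells and the other was listed at 0 in all 98 columns. Tnfrsf25 lies apart from them at chr4:152115934-152120119. Tnfrsf9 is at chr4:150914562-150946102, Tnfrsf1b at chr4:145213463-145246870 on the minus strand and Tnfrsf1a at chr6:125349362-125362484. The promoter windows of the 3 chromosome 4 genes are shown because Tnfrsf25 and Tnfrsf18 were the highest of the receptors and Tnfrsf4 is the unread neighbour. Each runs 250 bases before to 50 after the start of the gene on the plus strand, from RefSeq on GRCm38.p6: Tnfrsf25 at chr4:152115684-152115983, Tnfrsf18 at chr4:156026072-156026371 and Tnfrsf4 at chr4:156013445-156013744. For Tnfrsf18 and Tnfrsf4 the start behind the window is not the GENCODE start given above, and the Tnfrsf4 window ends before that GENCODE start. Capitals mark a match to the RUNX motif TGTGGT, here on the minus strand.
Tnfrsf25: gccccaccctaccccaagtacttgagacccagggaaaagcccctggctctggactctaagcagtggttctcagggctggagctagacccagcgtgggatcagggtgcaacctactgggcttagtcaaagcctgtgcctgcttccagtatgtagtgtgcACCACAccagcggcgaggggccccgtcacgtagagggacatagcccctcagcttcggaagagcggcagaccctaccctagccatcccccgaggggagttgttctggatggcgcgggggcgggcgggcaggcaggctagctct
Tnfrsf18: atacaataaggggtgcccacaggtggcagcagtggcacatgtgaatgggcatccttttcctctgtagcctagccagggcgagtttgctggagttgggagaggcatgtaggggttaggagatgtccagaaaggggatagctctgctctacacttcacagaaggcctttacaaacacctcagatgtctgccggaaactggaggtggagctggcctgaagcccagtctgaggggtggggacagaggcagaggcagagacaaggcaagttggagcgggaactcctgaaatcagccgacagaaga
Tnfrsf4: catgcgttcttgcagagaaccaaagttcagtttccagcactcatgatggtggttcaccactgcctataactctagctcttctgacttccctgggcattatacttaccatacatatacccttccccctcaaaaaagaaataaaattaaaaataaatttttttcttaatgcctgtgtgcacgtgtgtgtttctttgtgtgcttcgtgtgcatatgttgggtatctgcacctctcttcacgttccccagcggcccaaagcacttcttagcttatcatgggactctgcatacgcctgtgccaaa
The windows were searched on both strands for TGTGGT, the AP-1 motif TGANTCA and the NF-kappa B motif; none of these motifs contains another. The RUNX match in the Tnfrsf25 window was the only match among the 3 windows, and 16.9% of all 27025 promoter windows of this length hold it. The NF-kappa B motif is in 8.18% of all windows and the AP-1 motif in 7.93%. A match describes letters only, and the missing matches say only that those letters are not in these windows.

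Of the receptor genes, Tnfrsf25 and Tnfrsf18 were the most abundant in every set of cells, Icos and Cd160 came in the middle, and Tnfrsf9, Tnfrsf1a and Tnfrsf1b were read in few cells. Tnfrsf4 and Ctla4 were listed at 0 throughout, as were 9389 of all genes (40.1%). By mean TPM the order in WT cells was Tnfrsf18 (315.2), Tnfrsf25 (164.4), Cd160 (66.9), Icos (64.4), Tnfrsf1b (37.8), Tnfrsf9 (31.6) and Tnfrsf1a (1.80). In R9 cells without an ending Tnfrsf18 (82.8) again stood just before Tnfrsf25 (71.9), followed by Icos (45.9), Cd160 (19.8), Tnfrsf9 (6.55), Tnfrsf1b (5.41) and Tnfrsf1a (0.61). In R9 cells of ending 1 Tnfrsf25 came first at 805.1, ahead of Tnfrsf18 at 181.6, Tnfrsf1a at 25.2, Cd160 at 23.1 and Icos at 22.3, while Tnfrsf1b (0.054) and Tnfrsf9 (0.031) were near 0. Among all genes above 0 in a set, the mean of Tnfrsf25 exceeded that of 98.5% in ending 1, 87.6% in the series without an ending and 91.6% in WT. Neighbours in each order overlapped in their ranges over cells, so these orders are of means that a few cells can set. At 10 TPM or more, at least 50% of the cells held Tnfrsf25 in all R9 cells together (1 of the 9 receptors, beside 6.84% of all genes above 0 in a cell), Tnfrsf25 and Icos without an ending (2, beside 11.5%), Tnfrsf25 in ending 1 (1, beside 7.29%), and Tnfrsf25 and Tnfrsf18 in WT (2, beside 6.31%). At 1 TPM or more the receptors so widely read were 1 in all R9 cells (11.5% of genes), 2 without an ending (13.1%), 2 in ending 1 (16%) and 3 in WT, where Icos joined Tnfrsf25 and Tnfrsf18 (12.3%).

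**Figure D1:**
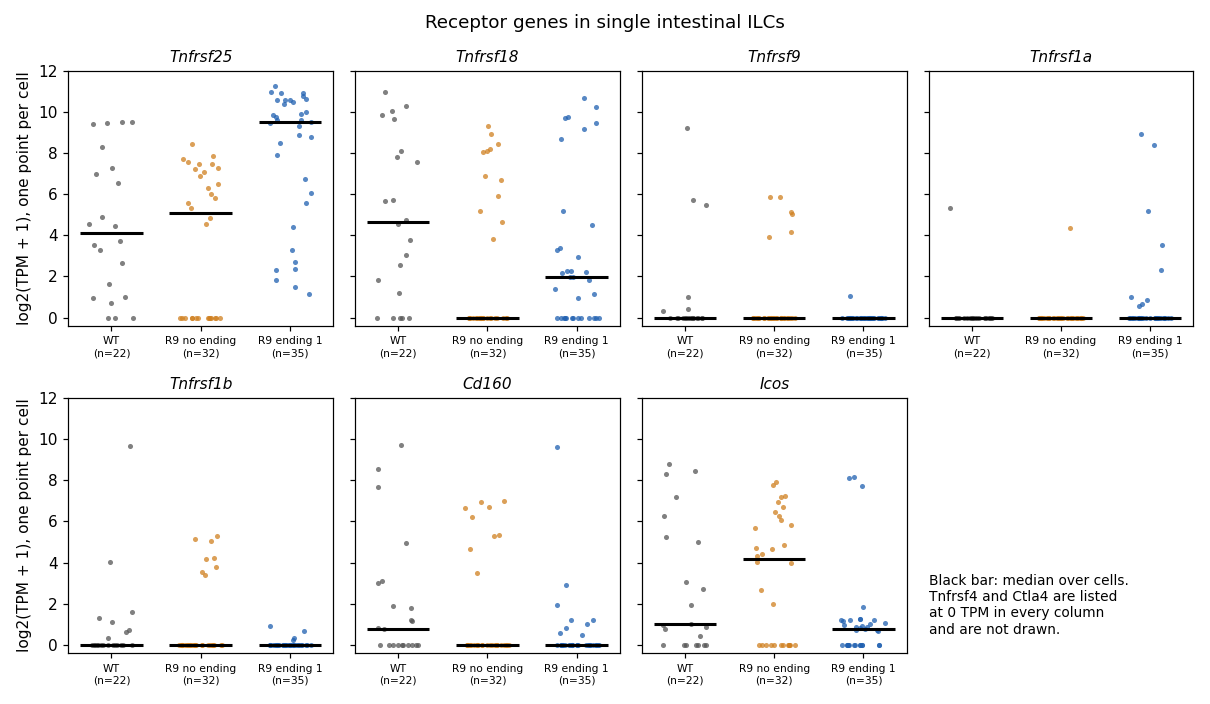
Expression of the 7 receptor genes above 0 in any cell, as log2(TPM + 1) on the vertical axis, with 1 point per cell and a black bar at the median, for 22 WT cells, 32 R9 cells without a title ending and 35 R9 cells of ending 1. Tnfrsf25 lies above 0 in every R9 cell of ending 1, whereas Tnfrsf9, Tnfrsf1a and Tnfrsf1b are at 0 in most cells of each set.

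Tnfrsf25 encodes death receptor 3 (DR3), the receptor of TL1A. In the 35 R9 cells of ending 1 its TPM ran from 1.18 to 2425.3 with a median of 725.6. In the 32 R9 cells without an ending it ran from 0 to 348.6 with a median of 33.04, and in the 22 WT cells from 0 to 730.6 with a median of 16.6. The middle of the ending 1 cells thus lay above the highest cell of the other R9 series and just under the highest WT cell, but the ranges overlapped: 25% of ending 1 cells lay at or below 56.3 TPM. Tnfrsf25 stood at 10 TPM or more in 28 of 35 cells of ending 1 (80.0%, exact 95% interval 63.1 to 91.6, counting error only as for all intervals here), 18 of 32 without an ending (56.2%, 37.7 to 73.6) and 13 of 22 WT cells (59.1%, 36.4 to 79.3). At 100 TPM the counts were 25, 10 and 7 cells, or 71.4% (53.7 to 85.4), 31.2% (16.1 to 50.01) and 31.8% (13.9 to 54.9). The intervals of the 2 R9 series do not overlap at 100 TPM and do overlap at 10 TPM. At 1 TPM all 35 cells of ending 1 were counted, beside 18 of 32 and 16 of 22.

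Tnfrsf18 encodes GITR, a co-stimulatory receptor best known on regulatory T cells. It ran from 0 to 2028 TPM in WT cells with a median of 24.2, from 0 to 637.4 without an ending with a median of 0, and from 0 to 1656.4 in ending 1 with a median of 2.88. It was at 10 TPM or more in 13 of 22 WT cells (59.1%, 36.4 to 79.3), 12 of 32 R9 cells that have no ending (37.5%; interval 21.1 to 56.3) and 9 of 35 of ending 1 (25.7%, 12.5 to 43.3). The share was highest in WT, but the intervals overlap. In ending 1 a further 13 cells lay above 0 and under 10 TPM, as did 4 WT cells and 0 cells of the series without an ending, so that at 1 TPM the shares became 60.0% of ending 1, 37.5% without an ending and 77.3% of WT. The order of the R9 series in this share thus turns with the limit. Tnfrsf4, which encodes the related receptor OX40, gave no value above 0. Tnfrsf18 overlaps an annotated antisense gene, Gm16008, that is not in the tables, and whether the counting used strand is not given in the sources used here.

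Icos, the co-stimulatory receptor of the CD28 family, was at 10 TPM or more most often in R9 cells without an ending. There it ran from 0 to 241.0 TPM with a median of 17.1 and reached 10 TPM in 18 of 32 cells (56.2%, 37.7 to 73.6). In ending 1 the median was 0.72 and the highest cell 281.5 TPM, with 3 of 35 cells at 10 TPM or more (8.57%, 1.80 to 23.1). In WT the median was 0.99 and the highest cell 437.8 TPM, with 7 of 22 cells at 10 TPM or more (31.8%, 13.9 to 54.9). At 10 TPM the intervals of the 2 R9 series do not overlap, and that of WT overlaps both. The R9 intervals do overlap at 1 TPM (62.5%, 43.7 to 78.9 without an ending and 34.3%, 19.1 to 52.2 in ending 1). They also overlap at 100 TPM (18.8%, 7.21 to 36.4 and 8.57%, 1.80 to 23.1). Another 18 cells of ending 1 held Icos above 0 but under 10 TPM, against 2 without an ending and 8 in WT. The 3 highest cells of ending 1, at 281.5, 272.9 and 207.8 TPM, stood well apart from the rest of that series.

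Cd160, a receptor of the immunoglobulin superfamily found on natural killer cells and some ILCs, was at 10 TPM or more in 9 of 32 R9 cells that have no ending (28.1%, 13.7 to 46.7), 1 of 35 of ending 1 (2.86%, 0.072 to 14.9) and 4 of 22 WT cells (18.2%, 5.19 to 40.3). Its highest values were 124.5, 795.6 and 834.2 TPM, and its medians were 0, 0 and 0.72. A further 8 cells of ending 1 and 8 WT cells held Cd160 above 0 but under 10 TPM, against 0 without an ending. At 1 TPM the shares were 28.1% without an ending, 17.1% of ending 1 and 45.5% of WT. The order of the sets thus depends on the limit. A single cell held 98.2% of the summed Cd160 of ending 1 and 56.7% of that of WT. The gene (chr3:96798763-96829351) overlaps Pdzk1 on the other strand; 1 of the 10 R9 cells and 0 of the 4 WT cells with Cd160 at 10 TPM or more also held Pdzk1 at that level.

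Tnfrsf9 encodes 4-1BB (CD137), an activation-induced co-stimulatory receptor. It stood at 10 TPM or more in 6 of the 32 R9 cells with no ending (18.8%, 7.21 to 36.4), with 56.9 TPM as the highest value. In ending 1 it was above 0 in 1 cell, at 1.07 TPM, and in WT it reached 10 TPM in 3 of 22 cells (13.6%, 2.91 to 34.9). The WT cells in question stood at 598.6, 52.4 and 42.9 TPM, and the first held 86.1% of the WT sum. Of the 6 R9 cells and 3 WT cells, 1 and 0 also held the overlapping gene Camta1 at 10 TPM or more.

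The TNF receptors proper were read in few cells. Tnfrsf1a, which encodes TNFR1, was at 10 TPM or more in 4 of 35 R9 cells of ending 1 (11.4%, 3.20 to 26.7), 1 of 32 without an ending (3.12%, 0.079 to 16.2) and 1 of 22 WT cells (4.55%, 0.12 to 22.8). Its 3 highest cells in ending 1 had 488.7, 339.8 and 35.2 TPM, and the sole cells of the other sets 19.6 and 39.7 TPM. Tnfrsf1b, which encodes TNFR2, went the other way among the R9 series: it was at 10 TPM or more in 7 of 32 cells without an ending (21.9%, 9.28 to 39.97), up to 38.4 TPM, and in 0 of 35 of ending 1 (0 to 10.003%), where its highest value was 0.85 TPM. In WT, 2 of 22 cells reached 10 TPM (9.09%, 1.12 to 29.2), and a cell at 810.9 TPM held 97.4% of the WT sum. Above 0 and under 10 TPM lay a further 1 cell without an ending, 4 of ending 1 and 6 WT cells.

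**Figure D2:**
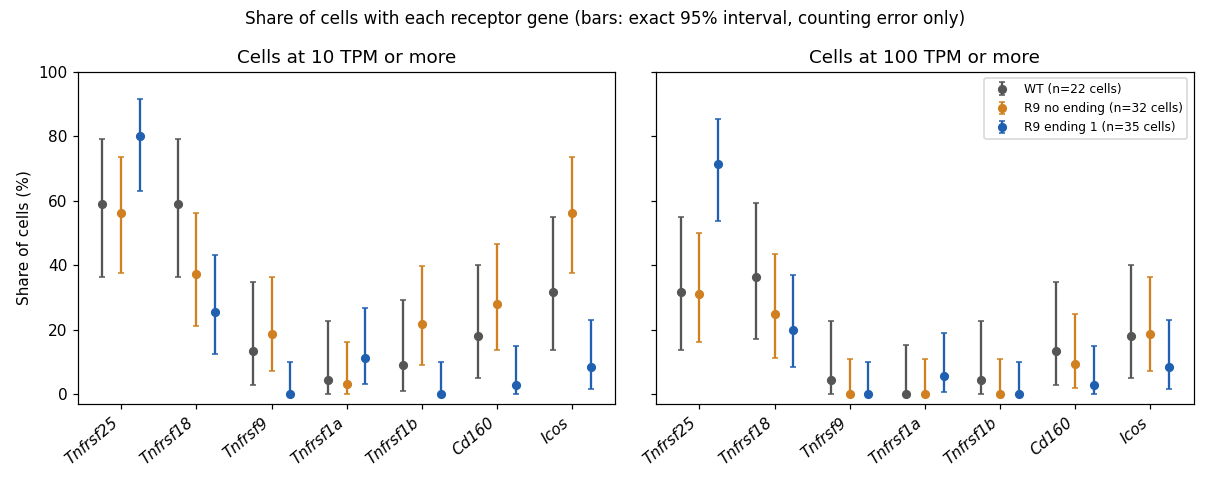
Share of cells (vertical axis, percent) at 10 TPM or more (left) and 100 TPM or more (right) for each receptor gene in WT cells, R9 cells without a title ending and R9 cells of ending 1; bars are exact 95% intervals for counting error. Tnfrsf25 at 100 TPM or more (71.4% in ending 1 against 31.2% without an ending) and Icos at 10 TPM or more (8.57% against 56.2%) have intervals that do not overlap between the R9 series. In the other panel the intervals of each of these genes do overlap (Tnfrsf25 80.0% against 56.2%, Icos 8.57% against 18.8%).

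Differences between groups were expressed as log2((mean TPM + 1)/(mean TPM + 1)), which understates differences of low genes, and a gene was counted as higher or lower at a size of 1 or more, a 2-fold ratio. Genes that averaged at least 1 TPM in a group were kept, which 7 of the 9 receptor genes passed. For R9 over WT, a level set across tables that may have been normalized separately, 2 of them were higher and 4 lower. Of all 10691 genes 43% were higher and 21.3% lower. The median over the 7 was -1.22 beside 0.62 over all genes. Against WT, R9 cells without an ending had 0 higher and 5 lower (all genes 26.6% and 44.5%; medians -1.70 and -0.67). Without the highest cell of each group, 2 of the 5 stayed lower, Tnfrsf25 (-1.11) and Tnfrsf18 (-1.83), while Tnfrsf9 (0.08) and Cd160 (-0.84) did not and Tnfrsf1b turned to 1.40. Those of ending 1 had 2 higher and 4 lower (48.8% and 20.4%; medians -1.49 and 0.94). These comparisons share the WT cells. Within the R9 table, ending 1 over no ending gave 3 higher and 3 lower (64.9% and 16.1%; medians 0.21 and 1.61). Since 7 genes carry these counts and single cells carry several of the ratios, the members are best read 1 by 1.

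For Tnfrsf25 the log2 ratio of R9 over WT was 1.46, with opposite signs by series: -1.18 without an ending and 2.28 in ending 1. Less the median of all genes, these values were 0.84, -0.52 and 1.34, so that the series without an ending no longer counted as lower. The ratio of ending 1 over no ending was 3.47, or 1.86 less the median of all genes, and 3.57 without the highest cell of each series. Tnfrsf18 had a ratio below 0 over WT in both series, at -1.92 without an ending and -0.79 in ending 1. The latter is short of the size of 1 that counts as lower. Over all R9 cells Tnfrsf18 was at -1.22 (-1.06 without the highest cells). Its ratio of ending 1 over no ending was 1.12 as computed and -0.48 less the median of all genes, so its sign depends on the scale. Icos was at -0.92 for R9 over WT, with -0.48 without an ending and -1.49 in ending 1; the value without an ending turned to 0.19 less the median of all genes and to 0.65 as a difference of mean logs. It was at -1.01 for ending 1 over no ending (-2.62 less the median).

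The other ratios leaned on single cells. Tnfrsf1b was at -3.43 for R9 over WT and at 0.60 once the highest cell of each group was left out. Tnfrsf9 was at -2.98 and then -0.75, so that it no longer counted as lower. Cd160 was at -1.59 and -1.53; against WT, R9 cells of ending 1 stood at -1.49 with all cells and at -4.45 without the highest. Tnfrsf1a was at 2.37 and 2.86 for R9 over WT. In WT 1 cell lies above 0, so leaving it out sets the WT mean to 0 and the second value is no check. As a difference of mean logs, R9 over WT was at 0.29. For the series without an ending, where 1 cell lies above 0, Tnfrsf1a was at -0.80.

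**Figure D3:**
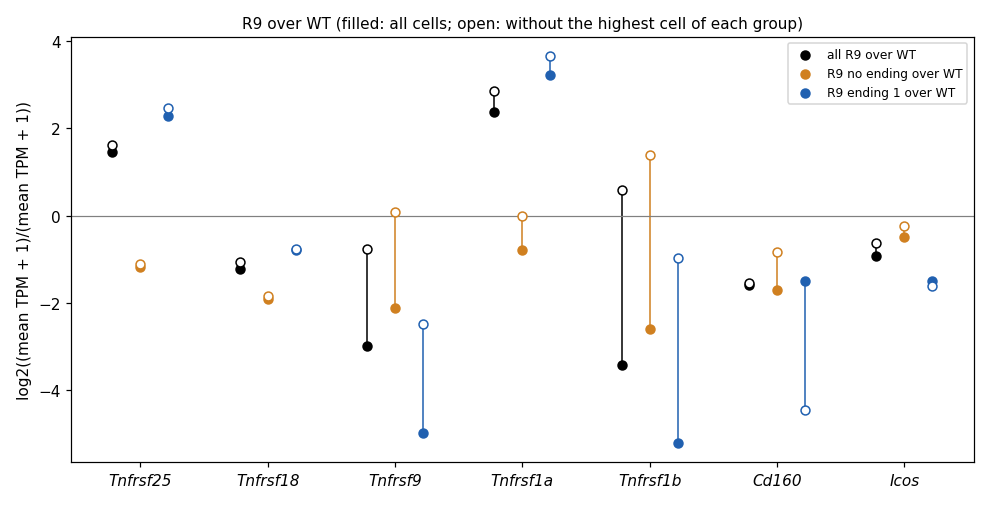
Log2 ratio of mean TPM + 1 (vertical axis) for 7 receptor genes, for all R9 cells, R9 cells without an ending and R9 cells of ending 1, each over WT; filled points use all cells and open points leave out the highest cell of each group. Tnfrsf25 changes sign between the R9 series (-1.18 and 2.28), and the lines of Tnfrsf9 and Tnfrsf1b are long because a single WT cell holds most of their WT sum.

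Receptor genes were next counted within the same cell at 10 TPM or more. Tnfrsf25 and Tnfrsf18 were both present in 9 R9 cells without an ending, in 9 of ending 1 and in 9 WT cells. Tnfrsf25 was there without Tnfrsf18 in 9, 19 and 4 cells, and Tnfrsf18 without Tnfrsf25 in 3, 0 and 4 cells. All 9 ending 1 cells with Tnfrsf18 thus also held Tnfrsf25, in a series where 80.0% of cells did. Tnfrsf25 and Icos shared 10 cells without an ending, 3 of ending 1 and 6 in WT, and Icos stood without Tnfrsf25 in 8, 0 and 1 cells. A cell held a median of 2, 1 and 1.5 receptor genes, at most 5, 3 and 5, and none in 2, 6 and 3 cells. Cells with Tnfrsf25 at 10 TPM or more had more genes at 1 TPM or more than the other cells (medians 2287 against 1886 without an ending, 2440 against 2238 in ending 1, 2381 against 1752 in WT); the part of this in the counts was not tested.

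**Figure D4:**
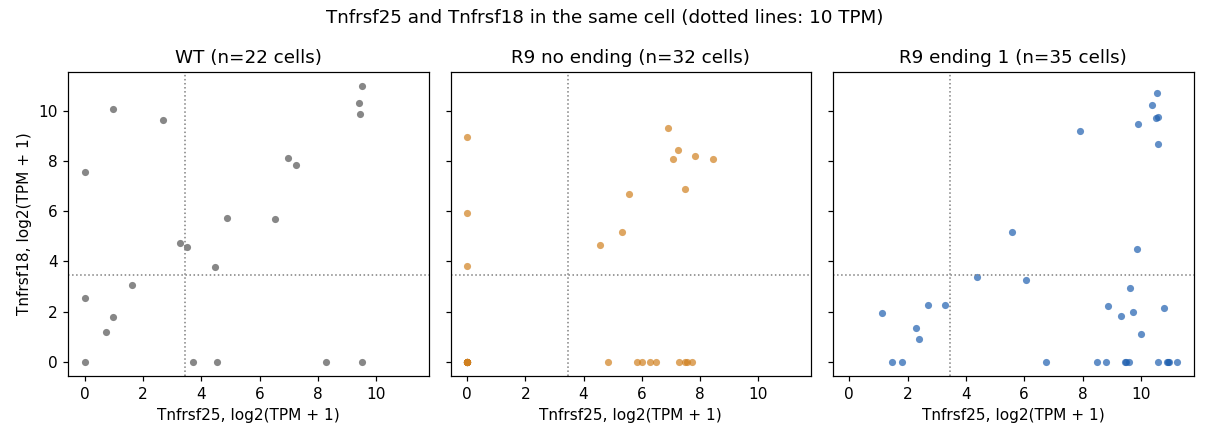
Tnfrsf25 (horizontal axis) against Tnfrsf18 (vertical axis) in each cell, both as log2(TPM + 1), for WT cells, R9 cells without an ending and R9 cells of ending 1; dotted lines mark 10 TPM. The upper right field holds 9 cells in each panel, and the upper left field holds 4, 3 and 0 cells.

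The ligands of these receptors were mostly read in few cells. Tnfsf15 (TL1A, for DR3), Cd80 and Cd86 (for CTLA-4) were listed at 0 everywhere. Tnfsf18 (GITR ligand) was above 0 in 1 R9 cell at 11.3 TPM, Tnfsf4 (OX40 ligand) in 2 R9 cells, up to 1434.4 TPM, and Tnfrsf14 (HVEM, for CD160) in 2 R9 cells, up to 53.6 TPM, all of ending 1. Tnfsf9 (4-1BB ligand) was above 0 in 5 R9 and 2 WT cells and Icosl (ICOS ligand) in 9 and 4. Tnf and Lta, whose products bind TNFR1 and TNFR2, were the exception: Tnf was at 10 TPM or more in 62.5% of R9 cells without an ending, 11.4% of ending 1 and 13.6% of WT, and Lta in 93.8%, 17.1% and 63.6%. Ltb, the lymphotoxin beta chain, was there in 100% of each set. Above 0 TPM, Tnf was read in 20, 21 and 12 of the 32, 35 and 22 cells and Lta in 30, 27 and 20. The gaps between the sets in Tnf and Lta thus depend on the limit of 10 TPM. Of the 17 TNF superfamily ligand genes listed, 10 passed the filter, 5 of them higher and 1 lower in R9, where 43% and 21.3% of all genes were (median 1.02, beside 0.62 over all genes); the counts and medians of this and the following lists include genes listed at 0 in all cells of a group. Tnfsf11, the RANK ligand gene, had the largest ratio among those above 0 in WT, 4.33 (1.33 without an ending, 5.18 in ending 1).

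Among 22 other TNF receptor superfamily genes, 9 were listed at 0 everywhere, including Cd40, Tnfrsf8 and Ngfr, and 9 passed the filter, 5 higher and 2 lower in R9 (43% and 21.3% of all genes; median 2.34). Tnfrsf13b, the TACI gene, was listed at 0 in every WT cell and was above 0 in 3 R9 cells without an ending and 8 of ending 1, up to 352.7 TPM. Tnfrsf21, which encodes death receptor 6, was at 18.2 TPM in R9 and 2.45 in WT (2.48). Fas, the death receptor of Fas ligand, had a ratio of -6.64, set by a WT cell at 2471.7 TPM; it was -1.08 without the highest cells. Tnfrsf11b, the decoy receptor of RANK ligand, was read in 8 R9 cells of ending 1, 1 of them at 1136 TPM.

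Of 24 listed genes of the signal chain below the TNF receptors 22 passed the filter, with 12 higher and 1 lower in R9 (43% and 21.3% of all genes; median 1.27), and Traf5 was listed at 0. Tradd, the adaptor of DR3 and TNFR1, was at 10 TPM or more in 28.1% of R9 cells without an ending, 40% of ending 1 and 9.09% of WT. Its ratio was 2.15 (0.85 without an ending, 2.78 in ending 1) and 4.49 without the highest cells, of which the WT cell stood at 560.4 TPM. Birc3, a ubiquitin ligase recruited by TRAF2, had a ratio of 5.16 (2.85 without an ending, 5.95 in ending 1) at a mean of 103.9 TPM in R9 and 1.93 in WT. Traf2 itself was at -0.67. Others with a ratio of 1 or more and the same sign in both series were Cflar (2.68), Traf3 (2.49), Tab2 (2.62), Cyld (2.38) and Birc2 (1.08), and Traf6 was listed at 0 in WT. Casp8, the initiator caspase, was at -2.27 and at -0.52 without its highest cells, and Sharpin (4.74) rested on an R9 cell at 61958 TPM.

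Of 12 other checkpoint and co-stimulatory receptor genes measured, 7 passed the filter, 3 higher and 0 lower in R9 (43% and 21.3% of all genes; median 0.96), and Cd28, Havcr2 and Tigit were listed at 0. Cd96, which binds the poliovirus receptor, was the most widely read at 10 TPM or more in 82.1% of R9 and 72.7% of WT cells. Pdcd1, the PD-1 gene, was at 10 TPM or more in 40.6% of R9 cells without an ending, 0% of ending 1 and 4.55% of WT, the same order of the R9 series as for Icos. Of those 13 R9 cells, 10 also held Tnfrsf25 and 7 also held Tnfrsf18. Above 0 TPM, Pdcd1 was read in 13 R9 cells without an ending, 9 of ending 1 and 3 WT cells. Cd101 had a ratio of 5.03. Cd200r1 was at 0.34, with -0.88 without an ending and 0.94 in ending 1, and at 3.03 without the highest cells, of which the WT cell stood at 860.3 TPM. Of 9 checkpoint ligand genes measured, 5 passed, 2 higher and 2 lower (43% and 21.3% of all genes; median 0.27), among them Lgals9, the galectin-9 gene (1.16, or 0.87 without the highest cells, of which the R9 cell stood at 12351 TPM), and Ceacam1 (-2.48). Of 13 genes of ICOS and CTLA-4 signalling and traffic 12 passed, 5 higher and 2 lower, near the 43% and 21.3% of all genes (median 0.22); Ap1m1, an adaptor subunit of vesicle sorting, stood highest at 4.44, and Lrba, which protects CTLA-4 from degradation, was at -1.90.

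**Figure D5:**
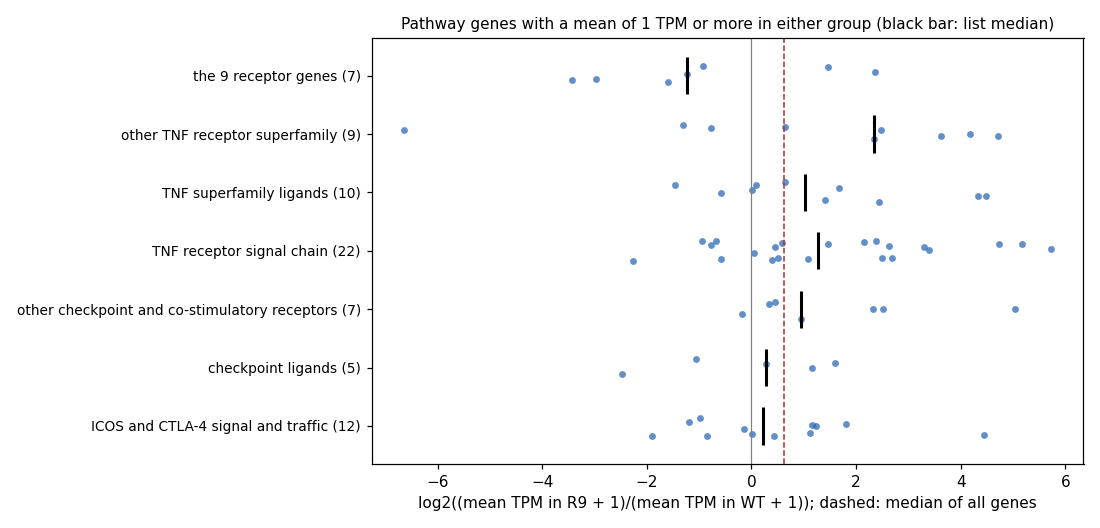
Log2 ratio of mean TPM + 1 in R9 over WT (horizontal axis) for the genes of each list that average at least 1 TPM in a group, 1 point per gene, with the list median as a black bar and the median of all genes, 0.62, as a dashed line. The receptor genes have a median of -1.22 and the TNF receptor signal chain 1.27.

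Several of these receptors are well known on T cells, so T cell genes were read in the same cells. Foxp3, which defines regulatory T cells, was at 1 TPM or more in 0 cells, with 0.69 TPM as its highest value. Of the other regulatory T cell genes listed, Ikzf2 was at 10 TPM or more in 2, 5 and 4 cells of the 3 sets. Ikzf4 was there in 0, 1 and 0 cells, and Lrrc32 and Gpr83 in 0 cells of each set. Among T cell markers Cd3e was at 10 TPM or more in 1, 1 and 0 cells, Cd3d in 0, 1 and 1 and Cd4 in 2, 0 and 2. Cd3g was the exception among the CD3 genes, at 10 TPM or more in 9, 10 and 6 cells. Of the 8 T cell markers in the tables, Cd8a, Cd8b1, Cd5 and Cd28 were listed at 0, and the summed level ran up to 201.2, 6165.1 and 273.9 TPM. Another listed marker, Trac, was not among the genes measured. Of the 9 R9 cells of ending 1 with Tnfrsf18, 3 held Cd3g at 10 TPM or more and 0 held Cd3e. For Tnfrsf25, 6 of 28 ending 1 cells at 10 TPM or more held Cd3g at that level, beside 4 of 7 other cells. The summed T cell level had medians of 3.00 and 2228 TPM in these cells. Without an ending Cd3g was in 5 of 18 and 4 of 14 cells, and in WT in 5 of 13 and 1 of 9. The medians there were 0 and 0, and 3.235 and 0 TPM. The part of T cell genes in these counts was not tested. The mast cell list moved with the R9 series: its summed level was 61.1 to 4568.3 TPM (median 1349.3) without an ending, while its median was 0 in ending 1 and in WT. Tpsb2, a mast cell tryptase gene, was at 10 TPM or more in 31 of 32, 0 of 35 and 0 of 22 cells. Cpa3 was there in 30, 1 and 0 cells and Cma1 in 27, 0 and 0. The other listed mast cell genes did not move this way: Mcpt1 was there in 0, 1 and 0 cells and Fcer1a in 1, 0 and 0, and Mcpt2 was listed at 0. All 6 R9 cells with Tnfrsf9 at 10 TPM or more held Tpsb2 too, in the series where nearly every cell did. The macrophage and dendritic cell list went the same way, with summed medians of 444.5, 0 and 5.96 TPM and ranges of 39.99 to 3920.4, 0 to 1873.7 and 0 to 4833.9. Of its genes, Lyz2 was at 10 TPM or more in 31, 3 and 4 cells, C1qc in 17, 0 and 2 and C1qb in 13, 0 and 3. C1qa was there in 10, 0 and 1 cells, Cd68 in 5, 1 and 0, Csf1r in 3, 0 and 1 and Xcr1 in 2, 0 and 0. Zbtb46 in 3, 0 and 4 cells and Itgax in 0, 0 and 1 went another way. The means of C1qb (60.9, 0 and 104.6 TPM) and Zbtb46 (5.09, 0.14 and 79.4 TPM) were highest in WT. The part of the mast cell and macrophage lists in the higher shares at 10 TPM or more of Icos, Cd160, Tnfrsf9 and Tnfrsf1b without an ending was not tested. The summed epithelial list had medians of 740.7, 51.1 and 7586.2 TPM, and in WT its median was 1455 in cells with Tnfrsf25 at 10 TPM or more and 1.503e+04 in the others; its part in the WT levels was not tested.

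Genes with the most similar pattern were sought for the 3 receptors at 1 TPM or more in at least 25% of R9 cells, among genes seen in at least 50% of the cells of each series, by the mean of the Spearman rho over log2(TPM + 1) within each R9 series, over 32 and 35 cells. For Tnfrsf25, among 944 genes, these included Fxyd5 (0.60 and 0.50, and 0.37 over 22 WT cells) and Hmgn3 (0.43 and 0.58). For Icos they were Rps19, S100a10 and Ppp2ca, with mean rho of 0.51, 0.48 and 0.46. For Tnfrsf18 they were Eif4g2, Ifngr1 and Ptpra, at 0.40, 0.40 and 0.39. These are the highest of some 945 values, the points share depth and scaling, and coefficients of this size in sparse values are descriptions only.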

How the data were processed

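The authors deposited TPM for 23420 gene symbols in 2 tables, 1 per group, with 98 columns in all; each column sums to 1e+06. The submitters' processing notes name StringTie 1.3.4, HISAT2 2.1.0, SAMtools 0.1.19, bcl2fastq and the build mm10, and per the labels' protocols the cDNA came from the Discover-sc WTA Kit V2. The 9 members and all gene lists were chosen with earlier results of these data known. WT columns with Pearson r above 0.8 over genes seen in both were averaged as 1 cell (31 columns, 22 cells, 8 of them from more than 1 column); that they are the same cell is an assumption. A WT column whose name carries no ending was used by its group only. Means, ratios with a pseudocount of 1 TPM and shares with exact Clopper-Pearson 95% intervals were computed with Python 3.11.15, numpy 2.4.6, pandas 2.3.3 and scipy 1.17.1, figures were drawn with matplotlib 3.10.9, and the ratio script was tested on simulated data. With 1 sample per group, and cells that are not replicates, no test was run. Named genes are the members, their ligands, up to 4 genes of highest mean per list, and list genes with a ratio of 1 or more in size that keeps its sign in both R9 series and without the highest cells. Some genes that these rules name are not reported here. Alternatives varied the pseudocount, the mean, the scaling, the filters, the detection limit, and which cells, columns and title series entered.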

Additional observations from a re-analysis of the deposited data

How the results depend on the processing

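Over 16 alternatives, the count of receptor genes higher in R9 than WT (2) became 1 with a pseudocount of 10 TPM, with means of logs, with cells scaled by 187 common genes and less the median of all genes, and 0 with R9 cells without an ending only. The count lower in R9 (4) became 1 with means of logs, 2 without the highest cells and 3 with WT columns of ending 1 only. It became 5 less the median of all genes and with R9 cells without an ending only. The count higher in ending 1 than in the other R9 series (3) became 1 with means of logs. It became 2 with common-gene scaling and less the median of all genes. The count lower (3) became 0 with a pseudocount of 10 TPM and 2 without cells of over 4000 genes. It became 4 without the highest cells, with common-gene scaling and less the median. The receptors at 1 TPM or more in at least 50% of R9 cells (1, Tnfrsf25) became 2 within either R9 series and 3 at any value above 0. They also became 2 without cells of over 4000 genes and without cells where 1 gene holds 10% of TPM. The WT count (3) became 1 with the 9 WT columns of ending 1 only and 4 at any value above 0. It became 2 with every WT column counted as a cell, at 10 TPM or more and without cells where 1 gene holds 10% of TPM. Signs turned for Tnfrsf1b, R9 over WT (0.60 without the highest cells), Tnfrsf18, ending 1 over no ending (-0.48 less the median of all genes), and, with R9 cells without an ending only, Tnfrsf25 (-1.18) and Tnfrsf1a (-0.80). The cause was not tested. Tnfrsf25 in ending 1 over no ending stayed past 1 in 9 of 9 settings (1.86 to 4.17), while Cd160 ran from -3.61 to 1.76. All genes split 43% higher and 21.3% lower in R9 as computed, 28.8% and 28.6% with common-gene scaling, and 30.5% and 31.1% less the median; ending 1 over no ending split 64.9% and 16.1%, 45.3% and 20.7%, and 26.3% and 29.2%. No paired analysis was possible because each group is 1 sample and no test was run. Depth is unknown, so low shares cannot be told from low sampling.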
